A study of Mus musculus with 4 samples.

Results

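The genes described are 9 products of the neutrophil lineage: the calgranulins S100a8 and S100a9, the granule proteins Ngp, Camp, Ltf and Lcn2, the secreted protein Wfdc21, the resistin-like Retnlg and the chemokine receptor Cxcr2. They were chosen by symbol with earlier results of the same values in view, both their levels by cell type and their differences between vehicle and digoxin. Those levels and differences are therefore given as a description, with no test. All 9 were present among the 17992 genes of the malignant cells and among the 16349 genes of the non-malignant cells.

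Neutrophils are short-lived granulocytes that leave the bone marrow with their granules already filled. The granules are made in succession: primary granules form in promyelocytes, secondary granules in the myelocyte stages, and tertiary granules and secretory vesicles later, so that RNA for secondary granule proteins marks cells still maturing, while receptors such as Cxcr2 come with maturity. S100a8 and S100a9 pair into calprotectin, an abundant cytosolic protein that binds calcium, zinc and manganese and acts on Tlr4 and Ager once released.

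The series compared sarcomas of the mouse hind limb, grown as allografts, between hosts given vehicle (PBS) and hosts given 2 mg/kg digoxin, a cardiac glycoside that inhibits the sodium pump. All 4 samples, controls included, share 1 genotype on the 129/SvJae background, which includes Trp53flox/flox, a Trp53 deletable by Cre; the labels do not say whether the genotype describes tumor, host or both, nor name the Cre. Injections were intraperitoneal and every 24 h, tumors were taken after 4 doses, and each group held 2 mice; ages are not in the labels. Digoxin was made up in DMSO before dilution in PBS, and the labels name PBS alone as the vehicle. The labels do not say whether the tumors came from 1 line, and they mention both plating for culture and direct loading after red cell lysis. Cells were captured in droplets, and a molecular barcode on the 3′ tag of every transcript (a UMI) let copies made by PCR be counted once, so that levels do not scale with gene length. The mouse was the replicate. Levels are CPM, a gene's UMIs scaled to 1000000 UMIs of its cell and averaged over the cells of a mouse.

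The tables held 31611 cells, of which 18963 were malignant and 12648 non-malignant, and the median depth by mouse ranged from 46799 to 57658 UMIs among malignant and from 15837 to 16671 UMIs among non-malignant cells. The host of vehicle 2 stood apart: Xist, the RNA of the inactive X chromosome, was at 6.09 CPM in its non-malignant cells and at 722, 817 and 788 CPM in vehicle 1, digoxin 1 and digoxin 2. Across libraries, 113 barcodes occurred more than once, and 0 of them belonged to a neutrophil. Only 73 cells carried the deposited name Neutrophil: 11 in vehicle 1, 5 in vehicle 2, 34 in digoxin 1 and 23 in digoxin 2. All 73 held UMIs of at least 3 of 6 neutrophil markers (Csf3r, Il1r2, Mmp9, G0s2, Trem1, Hdc), which each had a UMI in 64.4% to 97.3% of them. Of the 73, 50 also held at least 3 of 7 macrophage markers, and 21 held at least 20 UMIs of C1qa, C1qb and C1qc; the part of macrophage RNA in the levels below was not tested. The marker rule alone was not specific, since 654 other non-malignant cells and 278 malignant cells also met it.

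In the annotation, S100a8 and S100a9 lie 22.6 kb apart on chromosome 3, and Camp, Ngp and Ltf lie within 1.195 Mb of chromosome 9. Promoters of these 5 genes are shown because the genes lie near each other; they run from 250 bases before to 50 after the annotated start, 5′ to 3′ in the direction of transcription. Capitals mark 3 short motifs searched on both strands: TTNNGNAA, a spelling of the C/EBP core, GAGGAA, a core bound by PU.1, and TATAAA, the TATA box. Sequences and coordinates are from RefSeq, build GRCm38.p6.

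S100a8, chr3:90668821-90669120, plus strand: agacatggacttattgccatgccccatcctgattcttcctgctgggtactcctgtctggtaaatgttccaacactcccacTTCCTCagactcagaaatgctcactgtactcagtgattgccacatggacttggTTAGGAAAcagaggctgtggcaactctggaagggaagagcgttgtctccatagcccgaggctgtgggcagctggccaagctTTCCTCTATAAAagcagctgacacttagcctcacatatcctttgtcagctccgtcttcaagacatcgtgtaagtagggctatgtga
S100a9, chr3:90695672-90695971, minus strand: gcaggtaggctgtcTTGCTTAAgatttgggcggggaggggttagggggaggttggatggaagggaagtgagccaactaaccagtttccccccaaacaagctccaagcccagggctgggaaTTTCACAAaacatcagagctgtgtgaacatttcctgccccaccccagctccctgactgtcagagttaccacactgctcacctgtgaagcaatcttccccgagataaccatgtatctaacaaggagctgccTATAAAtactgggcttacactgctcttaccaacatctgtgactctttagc
Camp, chr9:109849407-109849706, minus strand: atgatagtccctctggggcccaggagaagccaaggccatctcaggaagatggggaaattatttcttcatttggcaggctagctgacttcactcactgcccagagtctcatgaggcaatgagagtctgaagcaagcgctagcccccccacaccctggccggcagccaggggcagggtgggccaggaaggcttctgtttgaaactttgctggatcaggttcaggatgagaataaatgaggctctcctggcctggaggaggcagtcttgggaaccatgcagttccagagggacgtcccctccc
Ngp, chr9:110419558-110419857, plus strand: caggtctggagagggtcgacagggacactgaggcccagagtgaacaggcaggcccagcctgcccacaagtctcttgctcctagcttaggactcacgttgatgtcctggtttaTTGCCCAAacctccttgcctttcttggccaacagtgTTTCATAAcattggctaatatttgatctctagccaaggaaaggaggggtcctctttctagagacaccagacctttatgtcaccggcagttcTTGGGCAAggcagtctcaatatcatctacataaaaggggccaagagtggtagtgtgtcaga
Ltf, chr9:111019042-111019341, plus strand: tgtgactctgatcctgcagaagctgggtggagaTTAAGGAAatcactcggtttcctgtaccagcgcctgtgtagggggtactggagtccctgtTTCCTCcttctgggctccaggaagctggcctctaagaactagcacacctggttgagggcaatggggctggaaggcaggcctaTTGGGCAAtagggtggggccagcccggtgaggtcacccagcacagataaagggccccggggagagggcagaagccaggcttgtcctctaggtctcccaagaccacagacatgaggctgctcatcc

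TTNNGNAA occurred once in the S100a8 promoter, 2 times in those of S100a9 and Ltf, and 3 times in that of Ngp, and no match lay in the Camp window. TATAAA lay 30 bases before the S100a8 start, where it directly followed a TTCCTC, the reverse complement of GAGGAA, and it lay at the annotated start of S100a9. No matches overlapped in these 5 windows. Of the 8 of 9 genes with a promoter in the table, TTNNGNAA was found in 6, GAGGAA in 4 and TATAAA in 2. Among all 32544 promoters of the same length, 40.7% held TTNNGNAA, 28.1% held GAGGAA and 13.6% held TATAAA, so a match by itself distinguishes little.

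Neutrophils were a larger share of the non-malignant cells in both digoxin mice. The share was 0.363% in vehicle 1, 0.166% in vehicle 2, 1.02% in digoxin 1 and 0.706% in digoxin 2, so that the vehicle mean was 0.264% ± 0.139 (SD, n = 2) and the digoxin mean 0.861% ± 0.220 (SD, n = 2). The groups did not overlap, and the 95% Wilson intervals, which cover counting error only, ran from 0.0709% to 0.648% over the vehicle mice and from 0.471% to 1.42% over the digoxin mice. The difference was 0.597 percentage points, with p = 0.33 in a two-sided exact permutation test, the smallest value that 2 mice against 2 can give.

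Each of the 9 genes had its highest mean level in the Neutrophil type among the 12 populations (11 deposited types and the malignant cells). For 7 of them the lowest mouse in that type exceeded the highest mouse in any other population, for example 1626 CPM against 223 CPM in B cells for S100a8. The exceptions were Ngp and Camp, which were at 0 in the neutrophils of 1 or both vehicle mice. Below the neutrophils the order was blurred: among the pairs of neighbours in each gene's order below that type, 2 were separated in all mice for Lcn2, 1 each for Ltf and Wfdc21, and 0 for the other 6 genes.

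**Figure D1:**
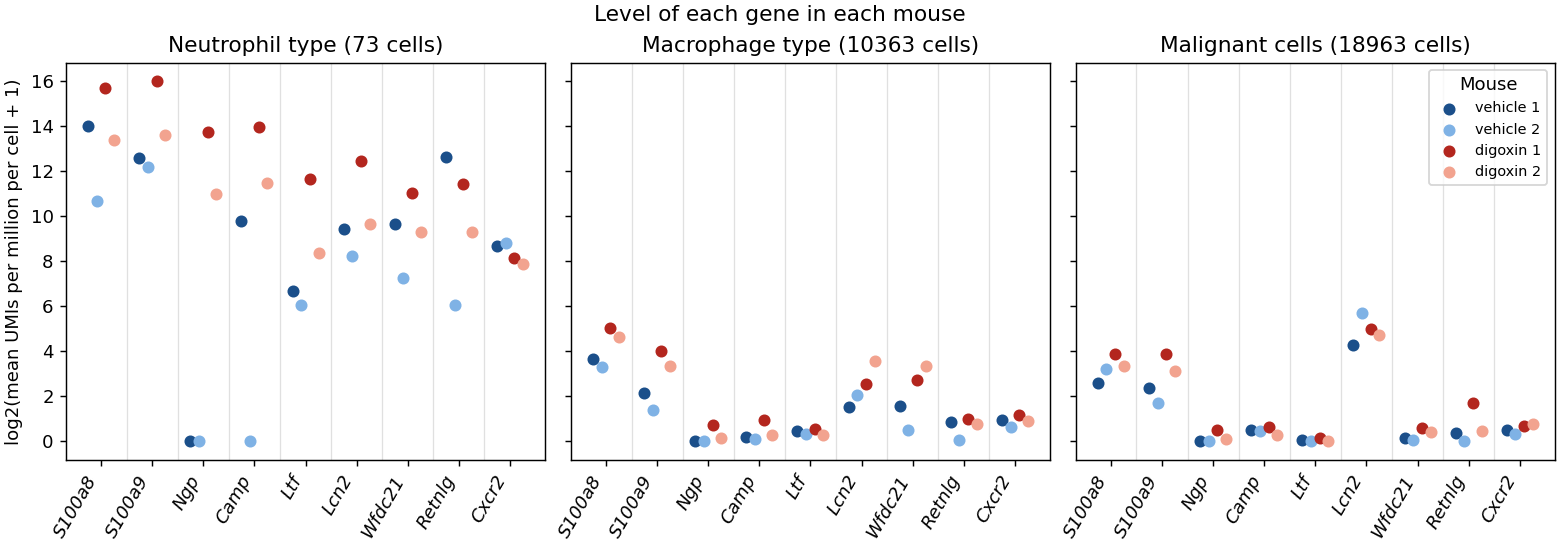
Mean level of each of the 9 genes, as log2(CPM + 1), in the Neutrophil type, the Macrophage type and the malignant cells; each point is 1 mouse. Levels are far higher in the Neutrophil type than elsewhere, except where Ngp (both vehicle mice) and Camp (vehicle 2) are at 0 there; Ngp sits at 0 in both vehicle mice in all 3 panels, and Lcn2 is the highest of the 9 in each malignant sample.

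Where the RNA of these genes lay differed between genes. Summed over the 4 mice, to which digoxin 1 gave most neutrophil UMIs, 8195 Ngp UMIs were found; of these, 98.5% were in the 73 neutrophils, which make up 0.231% of all cells, and the share was 95.8% for Camp, 94.1% for Ltf, 85.7% for S100a9, 77.8% for Retnlg and 75.7% for S100a8. Wfdc21 was divided, with 60.6% of its UMIs in neutrophils and 30.4% in macrophages. Only in digoxin 1 did neutrophils hold more of it than macrophages, 75.5% against 17.4%. The shares were 40.8% and 43.6% in vehicle 1, 17.6% and 38.2% in vehicle 2, and 38.4% and 52.3% in digoxin 2. Of 27505 Lcn2 UMIs, 84.3% were in malignant cells, close to the 84.0% of all UMIs that malignant cells held, and summed Lcn2 was 19.4 CPM in malignant and 19.1 CPM in non-malignant cells. With vehicle alone it was 21.9 and 4.67 CPM, and with digoxin alone 16.4 and 32.1 CPM. Cxcr2 had 49.9% of 819 UMIs in malignant cells, spread over 311 of 18963 cells with at most 6 UMIs each. With vehicle alone the neutrophil share was lower for all of these but Retnlg: 28.0% for Camp, 16.7% for Ltf, 30.8% for S100a9, 27.6% for S100a8, 37.1% for Wfdc21 and 90.5% for Retnlg. The 2 vehicle mice differed widely. In vehicle 1 and vehicle 2 the share was 45.5% and 0% for Camp, 21.4% and 8.33% for Ltf, and 38.5% and 16.5% for S100a9. It was 47.5% and 2.32% for S100a8, and 91.0% and 42.9% for Retnlg, which had 7 UMIs in vehicle 2. Malignant cells then held 68.3% of Camp UMIs, 54.5% of S100a8 UMIs and 54.4% of S100a9 UMIs, against 85.9% of all UMIs. These malignant shares differed between mice, at 35.7% in vehicle 1 and 78.6% in vehicle 2 for S100a8. In the same order they were 49.7% and 98.1% for Camp and 50.2% and 62.3% for S100a9.

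**Figure D2:**
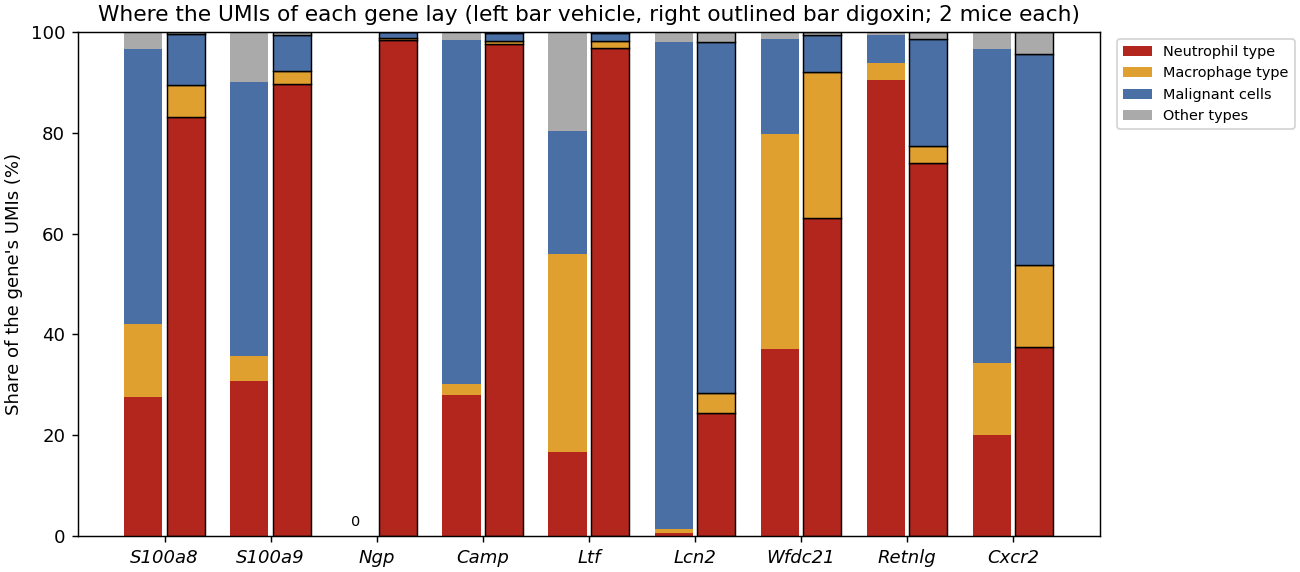
Share of each gene's UMIs found in the Neutrophil type, the Macrophage type, malignant cells and the other types, for the vehicle mice (left bar) and the digoxin mice (right, outlined bar). Ngp has no vehicle bar because it had 0 UMIs there; the malignant share of S100a8 is 54.5% with vehicle (35.7% in vehicle 1 and 78.6% in vehicle 2) and 10.0% with digoxin.

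Across all non-malignant cells, the digoxin mice both lay above the vehicle mice for 8 of the 9 genes, and Retnlg overlapped. Over the 14879 genes tested there, 12.4% lay above in this sense and 20.6% below; as the genes were selected on this contrast, nothing is read from the comparison. Without the neutrophils, 8 genes were above, with Retnlg added (0.735 and 0.0702 CPM with vehicle, 0.910 and 1.53 CPM with digoxin), and Ltf was below, against 12.5% and 20.4% of genes. The differences in CPM were smaller, falling from 369 to 7.10 CPM for S100a9 and from 16.4 to 5.41 CPM for Wfdc21. This concerns CPM and not the ratio between groups. When the other non-malignant cells with at least 3 neutrophil markers were left out too, an alternative chosen after the data were seen, 7 genes lay above, Ltf overlapped, and Cxcr2 lay below, at 0.484 and 0.506 CPM with vehicle and at 0.483 and 0.380 CPM with digoxin; 12.5% of all genes lay above in that setting and 19.6% below. S100a9, for instance, went from 20.9 ± 14.2 CPM (SD, n = 2) with vehicle to 389.9 ± 408.2 CPM (SD, n = 2) with digoxin in all non-malignant cells, and from 5.93 ± 3.93 to 13.03 ± 0.946 CPM once neutrophils were left out. Leaving out vehicle 2, whose host stood apart, kept the number above at 8 both with and without the neutrophils. With 1 vehicle mouse left, genes separate more easily, and the share over all genes was not computed, so nothing is read from this count.

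Within the neutrophils, S100a9, Ngp, Camp, Ltf and Lcn2 were higher in both digoxin mice, Cxcr2 was lower, and S100a8, Wfdc21 and Retnlg overlapped. Among the 12171 genes with a UMI in these cells, 20.8% lay above and 11.5% below. At least 3 of the 7 macrophage markers were found in 10 of 11 and 5 of 5 of these cells with vehicle and in 17 of 34 and 18 of 23 with digoxin, and their part in these differences was not tested. These means rest on few cells. Without vehicle 2 the number above stayed at 5, while Retnlg joined Cxcr2 below, and without vehicle 1 it was 8. Shares over all genes were not computed with 1 mouse left in a group, so nothing is read from these counts.

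By the mean over mice, the calgranulins were the most abundant of the 9 in neutrophils. S100a9 stood at 6136 CPM in vehicle 1, 4647 in vehicle 2, 65404 in digoxin 1 and 12609 in digoxin 2. S100a8 stood at 16543, 1626, 52573 and 10822 CPM in the same order, so that the vehicle 1 value lay between those of the digoxin mice. Digoxin 1 was the highest mouse for both. The pair followed each other closely from cell to cell, with a Spearman correlation of 0.911 over the 73 cells, which share libraries and differ in depth; S100a9 was the gene most like S100a8 among 4477 genes by this measure.

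Ngp, a secondary granule protein with a cystatin-like fold, was the gene that differed most plainly. It had 0 UMIs in 7540 cells of vehicle 1 and 0 in 9283 cells of vehicle 2, and stood at 13735 and 2045 CPM in the neutrophils of digoxin 1 and digoxin 2. Set against 3 UMIs over the vehicle group and scaled to depth, summed UMIs with digoxin were 584-fold in neutrophils and 2440.4-fold in all non-malignant cells. From digoxin 2 alone the ratios were 242-fold and 786-fold, and from digoxin 1 alone 801-fold and 4096-fold. These ratios take UMIs as independent, while nearly all Ngp UMIs lay in 18 of the 73 neutrophils. They are therefore not lower limits, since 1 such cell among the few vehicle neutrophils would change them. Camp, the cathelicidin precursor, stood at 870 and 0 CPM in the vehicle mice and at 15839 and 2861 CPM in the digoxin mice. Ltf, the iron-binding lactoferrin of secondary granules, stood at 100.04 and 65.8 CPM with vehicle and at 3183 and 327 CPM with digoxin. For all 3 genes digoxin 1 was the highest mouse and lay far above digoxin 2.

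Lcn2, which binds bacterial siderophores and so withholds iron, stood at 699 and 304 CPM in vehicle neutrophils and at 5525 and 795 CPM in digoxin neutrophils. Wfdc21, a small secreted protein with a whey acidic protein domain, stood at 813, 153, 2064 and 621 CPM. Retnlg, a cysteine-rich secreted protein of neutrophils, stood at 6242, 65.5, 2766 and 622 CPM, so that its highest and lowest mice were both vehicle mice. Cxcr2, the receptor for Cxcl1, Cxcl2 and related chemokines, went the other way from the granule genes: it stood at 402 and 446 CPM with vehicle and at 285 and 234 CPM with digoxin. The share of neutrophils with a Cxcr2 UMI was 81.8%, 80.0%, 85.3% and 87.0%, so detection was not lower in the digoxin mice.

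The higher granule gene levels with digoxin in neutrophils rested on 18 cells. In these, Ngp reached at least 10 UMIs, with 24 UMIs in the lowest of them and 1 UMI in the only other cell that had any. Of the 18, 16 were among the 34 neutrophils of digoxin 1, 2 were among the 23 of digoxin 2, and 0 were among the 16 of the vehicle mice. The 18 cells were rich in other members of the set: Camp had UMIs in 17 of them, Ltf in 16, and Lcn2 and Wfdc21 in all 18. Their median was 21750 CPM for Camp, 6374 CPM for Ltf and 9348 CPM for Lcn2, against a median of 0 for each in the 55 remaining neutrophils. The 9 genes together took up to 53.1% of the UMIs of a single cell. Median Cxcr2 was 94.3 CPM in the 18 cells and 288 CPM in the 55, and median Csf3r, the receptor for granulocyte colony-stimulating factor, was 73.2 and 420.3 CPM. Of the 18, 5 held UMIs of both Mki67 and Top2a, genes of dividing cells, and 2 held at least 20 C1q UMIs. As the cells were set apart by their Ngp UMIs after these were seen, the contrasts are descriptions.

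**Figure D3:**
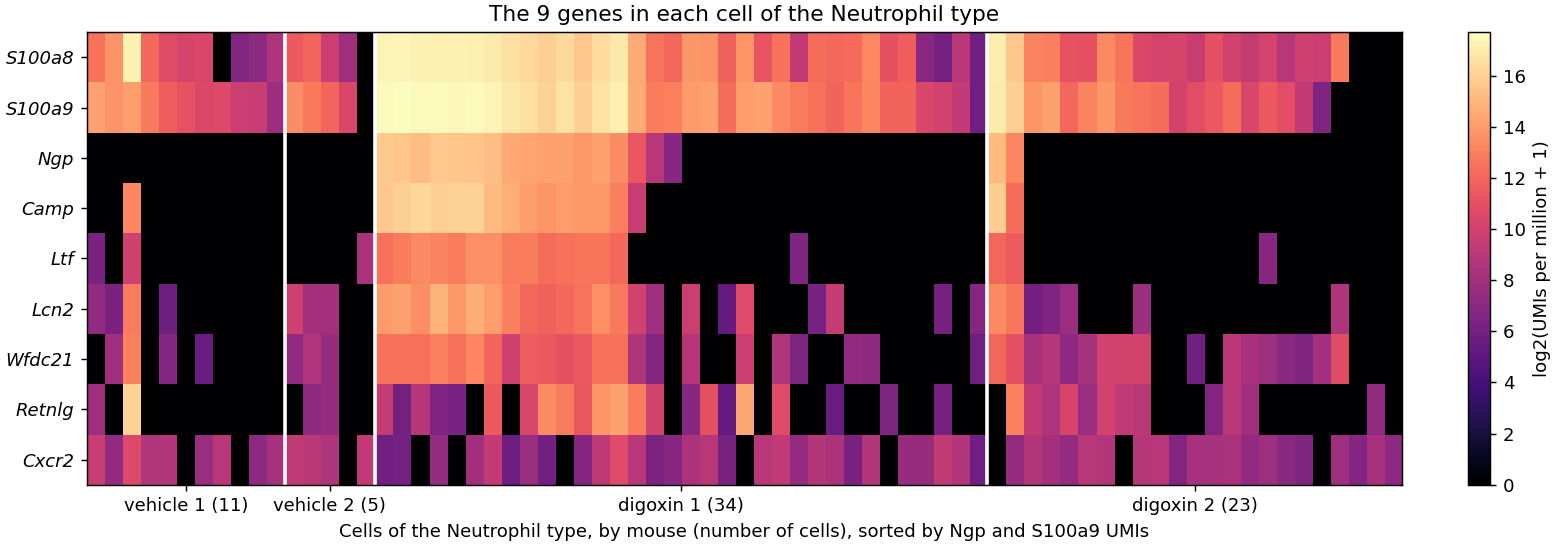
Each column is 1 of the 73 neutrophils, grouped by mouse with the number of cells in brackets, and the color is log2(CPM + 1) of each gene. The bright block at the left of digoxin 1, the first 2 columns of digoxin 2 and no vehicle column carry Ngp; 1 vehicle 1 column carries Camp and Retnlg without Ngp.

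With the 18 cells left out, a setting chosen after the data were seen, none of the 9 genes stayed higher in both digoxin mice: 3 were lower (Ltf, Lcn2 and Cxcr2) and 6 overlapped. As no vehicle cell held an Ngp UMI, the cut could remove cells of the digoxin mice only. Genes that go with Ngp from cell to cell were thus bound to fall there. The outcome describes where the UMIs lay and is not a test. Of the 11564 genes with a UMI in the same 55 cells, 20.8% lay above and 9.81% below. Camp was at 0 in the 18 remaining neutrophils of digoxin 1 and the 21 of digoxin 2. S100a9 stood at 6136 and 4647 CPM with vehicle and at 7833 and 4645 CPM with digoxin. Lcn2 stood at 699 and 304 CPM with vehicle and at 194 and 45.2 CPM with digoxin. The vehicle 1 values of S100a8, Camp, Ltf, Lcn2, Wfdc21 and Retnlg in turn rest on 1 cell of 7834 UMIs, which held all 75 Camp UMIs of the vehicle neutrophils, 536 of the 539 Retnlg UMIs of its mouse and 1202 S100a8 UMIs, with 0 Ngp UMIs. Without that cell the neutrophil level of vehicle 1 was 2854 CPM for S100a8 in place of 16543, 23.8 CPM for Retnlg in place of 6242, 29.0 CPM for Lcn2 in place of 699 and 7.93 CPM for Ltf in place of 100.04. So with the 18 cells left out, the lower Lcn2 with digoxin turns on that 1 vehicle cell, Ltf rests on 9 and 2 UMIs in the vehicle mice, and Cxcr2, at 289 CPM without the cell, differs little from the 288 CPM of digoxin 1. With the 18 cells kept and the vehicle 1 cell left out, S100a8, Wfdc21 and Retnlg no longer overlapped and also lay above with digoxin, as 8 of the 9 genes then did, where 20.7% of all genes lay above and 12.1% below.

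**Figure D4:**
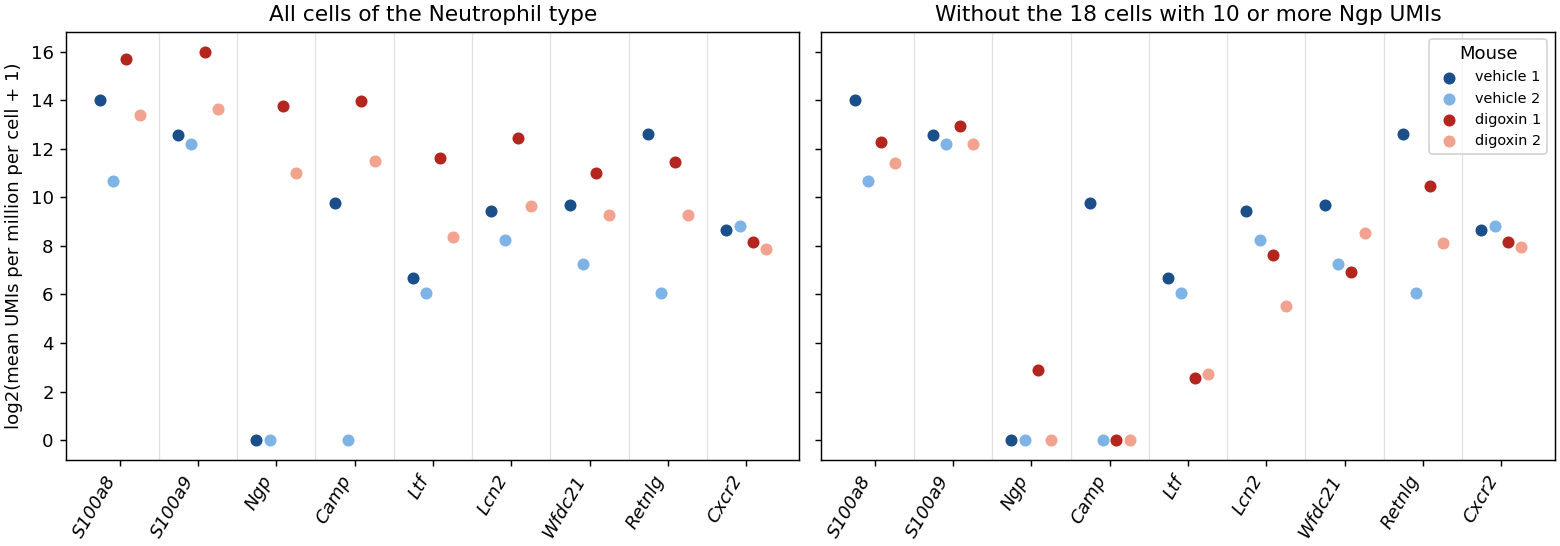
Neutrophil levels of the 9 genes by mouse, as log2(CPM + 1), for all 73 cells (left) and for the 55 cells with fewer than 10 Ngp UMIs (right). The red digoxin points of Camp, Ltf and Lcn2 lie above the blue vehicle points on the left and not on the right. The cut on Ngp could remove cells of the digoxin mice only.

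Macrophages numbered 2418 to 2748 per mouse and carried S100a8 at 11.5 and 8.98 CPM with vehicle and at 31.7 and 23.7 CPM with digoxin. S100a9 stood at 3.46 and 1.62 CPM with vehicle and at 15.0 and 9.25 CPM with digoxin. Both genes were higher in each digoxin mouse, as were Ngp, Camp, Lcn2 and Wfdc21, while Ltf, Retnlg and Cxcr2 overlapped; 13.6% of the 13734 genes tested lay above and 17.3% below. Without vehicle 2, a setting for which no share over all genes was computed, the number above stayed at 6. Without macrophages that held at least 3 neutrophil markers it was 7, with Retnlg added, and Cxcr2 lay below, where 13.5% of all genes lay above and 16.9% below.

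The calgranulin UMIs differed in makeup between populations. Of those in macrophages, S100a8 made up 84.4% and 85.6% with vehicle against 70.0% and 68.7% with digoxin, and in neutrophils it made up 67.2%, 25.2%, 44.8% and 48.3%. Without the 1 vehicle 1 cell described above, an alternative chosen after the data were seen, the vehicle 1 share in neutrophils was 37.1% in place of 67.2%. The macrophage share was above the neutrophil share in each of the 4 mice. The 95% Wilson intervals take UMIs as independent, though 1 cell moved the vehicle 1 share far outside its own interval. Nothing is therefore read from whether they meet. Of 76 macrophages with at least 5 S100a8 UMIs, 54 had no S100a9 UMI, 70 held at least 3 macrophage markers and 24 at least 3 neutrophil markers; the count without S100a9 was 147 of 202 among malignant cells and 1 of 61 among neutrophils. T cells, which are not known as a source of calgranulins, had an S100a8 UMI in 0.546%, 1.82%, 7.10% and 6.11% of cells at a median of 7244 to 8232 UMIs, against 11.5%, 11.9%, 20.5% and 18.8% of macrophages at a median of 16070 to 17049 UMIs. After thinning each cell to 5000 UMIs, which kept 2399, 2444, 2731 and 2721 macrophages and 166, 93, 133 and 112 T cells, S100a8 was found in 4.25%, 4.26%, 8.06% and 7.20% of macrophages and in 0.602%, 1.08%, 2.26% and 3.57% of T cells. S100a9 was found in 0.2501%, 0.491%, 3.92% and 2.24% of thinned macrophages and in 0.602%, 2.15%, 8.27% and 3.57% of thinned T cells. The macrophage share of S100a9 was thus at or below the T cell background and is not read as expression. That background differed between types. By the mean over mice S100a9 stood at 21.8 CPM in T cells, 7.33 CPM in macrophages and 1.88 CPM in NK cells. In digoxin 1, 7 of 155 T cells met the neutrophil marker rule. The makeup in macrophages therefore describes the UMIs in these droplets and is not read as a change in how macrophages express the pair.

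**Figure D5:**
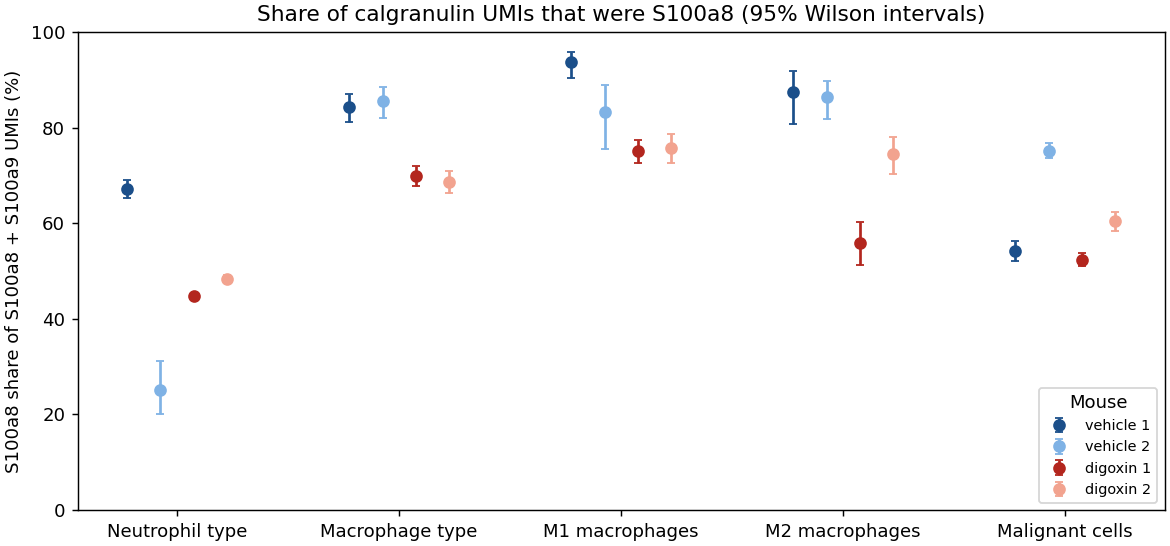
S100a8 as a percentage of S100a8 and S100a9 UMIs, by population and mouse. The 95% Wilson intervals take UMIs as independent, though UMIs cluster in cells, and so are too narrow. Macrophages lie between 68.7% and 85.6%, above the neutrophils of the same mouse, with macrophage S100a9 at or below the T cell background; the vehicle 1 neutrophil value of 67.2% is 37.1% without 1 cell.

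Among the macrophage sub-clusters, those the deposited annotation calls M1 had higher mean levels of S100a8, Lcn2 and Wfdc21 than those it calls M2. In M1 cells S100a8 stood at 15.4 and 9.68 CPM with vehicle and at 52.7 and 36.4 CPM with digoxin, and in M2 cells at 6.77, 9.13, 11.4 and 15.1 CPM. Wfdc21 stood at 3.99, 1.27, 11.1 and 21.0 CPM in M1 cells and at 0.152, 0.0898, 0.435 and 0.653 CPM in M2 cells. Lcn2 stood at 3.42, 8.57, 8.92 and 25.3 CPM in M1 cells and at 0.408, 0.974, 0.779 and 0.415 CPM in M2 cells. The M1 level was above the M2 level in each of the 4 mice for these 3 genes, by little for S100a8 in vehicle 2. M1 cells met the neutrophil marker rule in 10.5%, 10.1%, 11.2% and 13.5% of cells and M2 cells in 1.27%, 1.59%, 1.67% and 1.43%. Without those cells the M1 level was still above in each mouse for the 3 genes, while Lcn2 in M1 cells overlapped between groups, at 3.44 and 7.54 CPM with vehicle and 7.43 and 21.6 CPM with digoxin. Of the 9 genes, 7 lay above with digoxin in M1 cells and 1 (Ltf) below, where 15.3% and 24% of all genes did; in M2 cells 6 lay above and 0 below, where 15% and 11.7% of all genes did. S100a8 and Wfdc21 lay above without overlap in both sub-clusters, while Lcn2 lay above without overlap in M1 cells, with 8.57 and 8.92 CPM as the nearest mice, and overlapped in M2 cells; whether the digoxin difference itself differed between sub-clusters was not tested.

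Ngp was found in 37 macrophages, each with 1 UMI, and in 85 malignant cells, 84 of them with 1 UMI. All were in digoxin mice, and the share of macrophages with a UMI was 1.09% in digoxin 1 and 0.255% in digoxin 2, in the same order as Ngp in their neutrophils. In T cells it was 0 of 155 and 0 of 131 cells, which allows shares of up to 1.94% and 2.29%, at a lower median depth (7650 and 7244 UMIs, against 16133 and 17049 in macrophages), so the shares could not be compared with that background.

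Malignant cells had S100a8 at 5.11 and 8.17 CPM with vehicle and at 13.7 and 9.27 CPM with digoxin, and S100a9 at 4.11, 2.25, 13.6 and 7.70 CPM. By the mean over mice, S100a8 and S100a9 stood at 9.07 and 6.92 CPM in malignant cells. They stood at 12.1 and 21.8 CPM in T cells and at 2.36 and 1.88 CPM in NK cells. The malignant levels lay between those of these 2 types. Of 202 malignant cells with at least 5 S100a8 UMIs, 147 had no S100a9 UMI, and 2 of these 147 met the neutrophil marker rule. S100a8 made up 54.1%, 75.2%, 52.4% and 60.5% of the pair's UMIs in malignant cells, against 67.2%, 25.2%, 44.8% and 48.3% in neutrophils. Whether malignant cells express either gene was not tested, and the differences below are not read as such expression. Digoxin was above for 6 genes (S100a8, S100a9, Ngp, Wfdc21, Retnlg and Cxcr2) and overlapped for Camp, Ltf and Lcn2; 12.8% of the 17138 genes tested lay above and 16.5% below. Of the 66 malignant cells with at least 5 S100a9 UMIs, 60 also held at least 3 of the 6 neutrophil markers, against 278 of all 18963. Without the 278 cells, S100a8 stood at 2.77 and 7.31 CPM with vehicle and at 6.71 and 4.88 CPM with digoxin, which overlap, and S100a9 at 0.549, 0.462, 3.92 and 1.77 CPM, which do not. Retnlg and Cxcr2 also overlapped without those cells, so that 3 genes were left above (S100a9, Ngp and Wfdc21), where 12.7% of all genes lay above and 16.7% below. Without vehicle 2, digoxin was above for 7 genes, Lcn2 being the one added. With 1 vehicle mouse left, no share over all genes was computed, so nothing is read from this count.

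Lcn2 was the most abundant of the 9 in malignant cells. It stood at 18.4 and 51.4 CPM in malignant cells with vehicle and at 31.1 and 25.6 CPM with digoxin, so the groups overlapped and vehicle 2 was the highest mouse. A UMI was found in 12.7%, 22.3%, 17.3% and 14.5% of malignant cells, and after thinning in 4.60%, 9.37%, 6.54% and 5.22%, against 0%, 0%, 3.01% and 1.79% of thinned T cells. Of 1109 malignant cells with at least 5 Lcn2 UMIs, 696 held no UMI of the other 8 genes and 16 met the neutrophil marker rule. Fibroblasts also carried Lcn2, at 76.5, 15.8, 12.4 and 113 CPM, but 10 of the 203 fibroblasts held 91.4% of its UMIs.

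Other genes of the neutrophil program were taken from a list of 40 grouped by role. Of these, 38 passed the filter in non-malignant cells. There limma called 0 and edgeR called 0, against 0% of all genes with each tool, and 19 had an unadjusted limma p under 0.05, as had 581 of all 14879 genes. By side, 23 lay above with digoxin and 1 below, where 12.4% and 20.6% of all genes did, and 14 overlapped. The median difference was 0.64 on the log2(CPM + 1) scale, against -0.02 over all genes tested. DESeq2 called 3, against 0.202% of all genes, all higher with digoxin: Cxcl2, and the ficolin Fcnb and the lectin Clec4d, which are named after their values were seen. In macrophages limma and edgeR called 0 of 37 each, against 0% of all genes, and 18 had an unadjusted p under 0.05, as had 555 of all 13734. There 26 lay above and 1 below, where 13.6% and 17.3% of all genes did, and DESeq2 called Clec4d, against 0.146% of all genes. In malignant cells limma and edgeR called 0 of 37 each, against 0%, and 11 had an unadjusted p under 0.05, as had 585 of all 17138. There 17 lay above and 3 below, where 12.8% and 16.5% of all genes did, and DESeq2 called Chil3, against 0.263% of all genes. As the list was drawn up with earlier results known, these counts are descriptions.

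The most abundant of the 40 in neutrophils were Cxcl2, a ligand of Cxcr2, and Lyz2. Cxcl2 had the higher mean over mice, 11622 against 11374 CPM, and Lyz2 had more UMIs, 11153 against 9656. Cxcl2 stood at 13210, 11212, 8249 and 13819 CPM in neutrophils and overlapped. In macrophages it stood at 4472 and 3438 CPM with vehicle and at 5552 and 5873 CPM with digoxin, a difference of 0.54 ± 0.16 (SE) on the log2 scale with an adjusted p of 1.00 by limma. Lyz2, the lysozyme of both neutrophils and macrophages, stood at 11151, 10581, 9985 and 13780 CPM in neutrophils and also overlapped. Chil3, a secretory chitinase-like protein of granules and of some macrophages, followed the secondary granule genes, at 64.9 and 286 CPM with vehicle and 3103 and 712 CPM with digoxin; its reads can be shared with the near-identical Chil4. Mxd1 and Hdc, genes of mature neutrophils, stood lower with digoxin, at 1055, 1192, 719 and 611 CPM for Mxd1 and at 731, 886, 570.0 and 407 CPM for Hdc. Without the 18 cells with at least 10 Ngp UMIs both stayed lower. In digoxin 1 and digoxin 2, Mxd1 then stood at 740 and 627 CPM and Hdc at 672 and 424 CPM. Csf3r also lay below in that setting, Il1r2 overlapped, and 9.81% of all genes lay below. G0s2, Cxcl3 and Cybb overlapped in neutrophils.

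By role, 7 of 11 secondary and tertiary granule genes lay above with digoxin in neutrophils and 4 overlapped, where 20.8% of all genes lay above and 11.5% below. This count depended on the 18 cells with at least 10 Ngp UMIs, a cut that could remove cells of the digoxin mice only. Without them, Chil3, Hp, Pglyrp1 and Mmp8 overlapped, Cd177 lay below with digoxin, and Fcnb and Orm1 were at 0. In that setting 20.8% of all genes lay above and 9.81% below. All 5 primary granule genes overlapped, and of 10 genes of mature cells 1 lay above, 4 below and 5 overlapped. Primary granule RNA was nearly missing: Mpo had 2 UMIs, Elane 3, Prtn3 24, Ctsg 0 and Ms4a3 9 in the 73 neutrophils. In digoxin 2, 1 cell held 21 of the Prtn3 UMIs and all 3 Elane UMIs, along with 55 Fcnb UMIs. Cebpe, the C/EBP factor of the secondary granule stage, lay above with digoxin, at 4.78, 32.9, 92.2 and 44.8 CPM, and had a UMI in 12 of the 18 cells with at least 10 Ngp UMIs and in 7 of the 55 others. Ager and Slc22a17, named as receptors for S100a8 and S100a9 and for Lcn2, had 0 UMIs in neutrophils, while Tlr4 stood at 69.0, 27.8, 28.1 and 41.4 CPM.

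Genes other than the 9 with the most similar pattern over the 12 populations were named for each of the 9 genes among 9754 genes, using log2(CPM + 1) of the mean over mice; Stfa2l1 and Cd177 are also among the 40. For Ngp and Camp they were Ly6g, a surface protein of mouse neutrophils, BC100530 and Mgam, with Pearson correlations of 0.997 to 0.999. For Ltf and Retnlg they were Il1f9, Stfa2l1 and Ly6g, at 0.972 to 0.992, and for Cxcr2 Gm5483, Stfa2l1 and Ifit1bl2, at 0.945 to 0.988. For Wfdc21 they were Cd177, BC100530 and Ly6g, at 0.967 to 0.985. For S100a8 and S100a9 the first were B230208H11Rik and AC110211.1, at 0.967 and 0.931. For Lcn2 they were Alkbh5, Dhrs7 and Csgalnact2, at 0.898 to 0.912, all of which had over 30 CPM in a population outside neutrophils. The populations share libraries, the correlations are led by the high neutrophil value, and BC100530, Gm5483 and Stfa2l1 belong to the stefin A family, whose near-identical copies can split reads.

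From cell to cell within the 73 neutrophils, the granule genes and the calgranulins were correlated, and Cxcr2 did not join them. S100a8, for instance, reached 0.752 with Camp and 0.772 with Lcn2. Ngp and Camp each had a UMI in under 20 of the 73 cells, mostly the 18 with at least 10 Ngp UMIs. Their correlations therefore largely set those cells against others tied at 0. Ngp and Camp had a Spearman correlation of 0.930, Camp and Ltf 0.899, and Camp and Wfdc21 0.746, while Retnlg reached 0.372 with Ngp and 0.567 with Wfdc21. Cxcr2 had correlations between -0.24 and 0.17 with the other 8 genes. The genes most like Cxcr2 by this measure were Csf3r at 0.662, Hdc at 0.517 and Btg2 at 0.502. Those most like Ltf were Cd177, Ly6g and Serpinb1a, at 0.810, 0.809 and 0.772.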

How the data were processed

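The authors deposited a table of malignant and a table of non-malignant cells whose values, as tested on the files, are on a natural log scale: each gene's UMIs were scaled to 10000 per cell, 1 was added and the log taken. The deposited cell tables give cell types, mouse and the UMI count per cell as a raw count. Cell Ranger 3.0.2, Seurat 3.0.2 and the build mm10 are named per the submitters' processing notes; their settings, the cell filter and the rule that split malignant from other cells are not given in the sources used here. UMIs were recovered from the deposited values: 100% were whole within 0.01, and they summed to the deposited total in every cell. All cells were kept, and no doublet caller was run. Cells whose names carry a 3 belong to vehicle 2 per the cell table. Columns of no sample numbered 0.

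For each mouse and population, CPM per cell was averaged. Because the deposited values are normalized and not the raw counts the design assumed, limma 3.58.1 on log2(mean CPM + 1) with Benjamini-Hochberg adjustment at 0.05 was the main test, on genes kept by edgeR's filterByExpr, over all genes. edgeR 4.0.16 and DESeq2 1.42.0 on summed UMIs were alternatives, as were other pseudocounts, no filter, CPM of summed UMIs, a replicate block, and leaving out each mouse or the neutrophils. The fits were also run on simulated UMIs whose spread between mice was set and not taken from these data. That run does not show the power or error of the fits here. The labels name replicates but no shared cage, culture or day, so p-values measure the spread between these mice. The 9 genes, the marker and role lists and the tests were chosen with earlier results of these data known. The text names the 9 genes and, of the 40 others, the 8 with the highest neutrophil level. It names the 3 most similar genes by population, but only the first for S100a8 and S100a9. By cell it names 3 for Ltf and Cxcr2 and the first for S100a8. Other names were picked after their values were seen. Computed with Python 3.11.15 and R 4.3.3. Wfdc21 has no entry in the promoter table. The other allele of the shared genotype is not reported here.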

Additional observations from a re-analysis of the deposited data

Results flagged for a closer look

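Cxcr2 differed between populations in the side on which the digoxin mice lay: both were below both vehicle mice in neutrophils, by -0.71 on the log2(CPM + 1) scale, and both were above them in malignant cells and in the type named Epithelial. The difference between populations was not tested. Without the 1 vehicle 1 cell described above, the neutrophil level of that mouse was 289 CPM in place of 402, only just above digoxin 1. In Epithelial cells the level was 1.08, 1.05, 1.17 and 4.85 CPM, from 1 to 7 UMIs per mouse, in vehicle 1, vehicle 2, digoxin 1 and digoxin 2, and without cells that held at least 3 neutrophil markers it was 1.08, 0, 1.19 and 0 CPM, which overlap. In malignant cells the level was 0.445, 0.265, 0.631 and 0.718 CPM in the same order, and without such cells it was 0.277, 0.197, 0.242 and 0.275 CPM, which overlap.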

How the results depend on the processing

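The limma count of 0 genes stayed at 0 in all 3 populations with another pseudocount, without a filter, with CPM of summed UMIs and with edgeR, and in non-malignant cells without the neutrophils. DESeq2 called 30 genes in non-malignant cells, 20 in macrophages and 45 in malignant cells; the cause was not tested. A replicate block called 2, 0 and 0; same-numbered mice correlated by 0.01, -0.04 and -0.36 in their deviations, the labels tie no numbers to a shared source, and a crossed block in malignant cells, added after seeing the data, called 0. Leaving out 1 mouse, where a lone sample is assumed to vary like the other group, gave 0 to 27 in non-malignant cells, 0 to 132 in macrophages and 0 to 5 in malignant cells; the counts of 27 and 132 came without vehicle 1, and those of 5 without vehicle 1 and without vehicle 2. In non-malignant cells 4 were called without vehicle 2 and 1 without digoxin 2, and in macrophages 2 without digoxin 2. The neutrophil share was higher with digoxin without each mouse, by 0.442 to 0.752 percentage points, by 0.284 as a share of all cells, and by 2.27 when cells of other types with at least 3 neutrophil markers were added. With those cells the means were 4.56% with vehicle and 6.83% with digoxin, a smaller ratio than that of 0.264% and 0.861% in the main setting. The marker rule was not specific to neutrophils. For the levels and detection of single genes in non-malignant cells or macrophages, 24 of 45 alternatives moved the difference by less than 1 SD and 21 by more. Without neutrophils the Ltf difference in non-malignant cells turned from 16.9 to -0.20 CPM. With 5 and 11 neutrophils in the vehicle mice, single cells decide the neutrophil levels there, and shares of cells with a UMI depend on depth.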
